A study of Mus musculus with 6 samples.

Results

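The 37 genes of the mouse mitochondrial genome, every gene whose symbol begins with mt-, were followed among the 57010 genes of the count table. They comprise 13 protein-coding genes, 2 ribosomal RNA (rRNA) genes and 22 transfer RNA (tRNA) genes. RNA had been measured in sorted heart cells that were positive for CD45, a surface protein of leukocytes, and negative for CD90.2, a T cell protein, with 3 libraries in each of 2 groups. All mice had the genotype Ova DTG, in which the heart carries ovalbumin as a transgene product, and all had received OTI cells, CD8 T cells that recognise ovalbumin. One group was then given immune checkpoint inhibitors (ICI, antibodies against CTLA-4 and PD-1 at 200 µg each) and the other isotype antibody, and the sample titles of both groups name myocarditis. Age, sex and any pooling of animals are not given in the labels.

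Mitochondrial DNA is a small circle that is read from both strands into long precursor RNAs by its own RNA polymerase, POLRMT, with the factors TFAM and TFB2M. The tRNAs stand between most of the other genes and are cut out, which releases the messenger RNAs (mRNAs) and rRNAs, and most mRNAs then receive a poly(A) tail from the polymerase MTPAP. The proteins made from them are core subunits of complexes I, III and IV of the respiratory chain and of ATP synthase, while all other subunits, and complex II as a whole, come from nuclear genes. Heart muscle is dense in mitochondria, and macrophages are known to shift between oxidative phosphorylation and glycolysis with their activation state.

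Total counts ran from 21528274 to 30736316 per library, and the mitochondrial genes held 101682 to 196731 of them. Levels are given as CPM, the gene's counts scaled to the library total, in the order of replicates 1, 2 and 3. Fold changes come from edgeR's quasi-likelihood test with TMM normalization factors, which were 1.05 to 1.11 for ICI and 0.921 to 0.952 for isotype libraries, so a fitted fold is smaller than the ratio of the CPM values. A gene was called at a Benjamini-Hochberg adjusted p under 0.05 over 14575 tested genes, of which 68.9% were called. Pan-leukocyte and myeloid markers summed to 22147 to 25751 CPM in libraries labelled ICI and 17379 to 18959 CPM in isotype libraries, and T cell markers to at most 21.9 CPM. Of the 8 pan-leukocyte and myeloid markers 3 were called higher, 3 lower and 2 not called. Of all tested genes 35.0% were called higher and 33.9% lower. Replicate 3 of each group held 2786 and 1844 counts of Xist, against at most 12 in the other libraries, and the replicates of a group therefore differed in sex-linked transcripts. In bulk libraries fewer cells of a type and less RNA per cell cannot be told apart.

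Most mRNAs and both rRNAs of the mitochondrial genome were higher in the libraries labelled ICI, while most tRNA genes were too low to test. Of the 13 protein-coding genes 8 rose and 5 were not called, against 35.0% of all tested genes called higher and 33.9% called lower. The median log2 fold change of the 13 was 0.55, against 0.03 over all genes tested. In CPM, 10 of the 13 had all 3 ICI libraries above all 3 isotype libraries and 3 overlapped, where 45.3% of all tested genes were higher with no overlap. Both rRNA genes rose. The protein-coding genes took 0.603%, 0.687% and 0.677% of the counts in libraries labelled ICI and 0.410%, 0.372% and 0.417% in isotype libraries, with no overlap. The means were 0.656% ± 0.046 and 0.400% ± 0.024 (SD, n = 3 each), a ratio of 1.64 (exact permutation test, two-sided, p = 0.1; groups of 3 allow no smaller value). Without replicate 3 of both groups, the pair that differed in sex-linked transcripts, 9 of the 13 genes were called higher and the share differed by 0.254 percentage points, against 0.256 with all libraries.

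**Figure D1:**
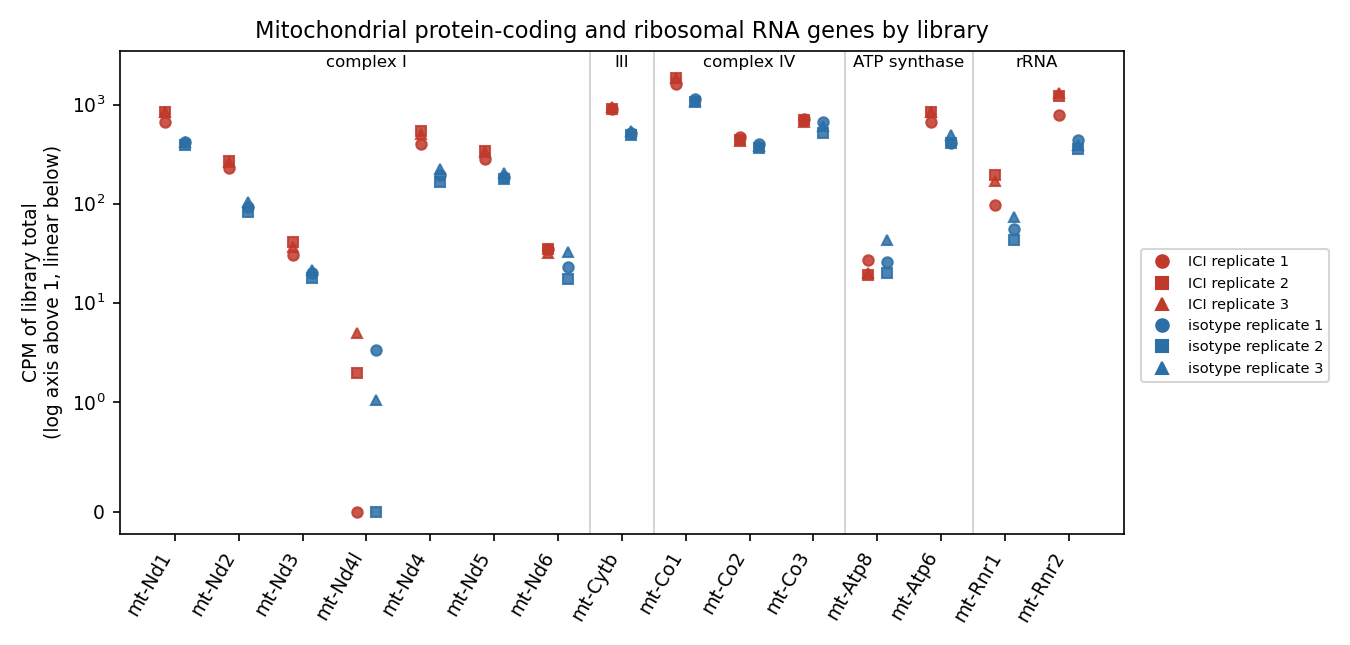
CPM of library total (log axis above 1, linear below) of the 13 protein-coding and 2 rRNA genes in the 6 libraries, 1 point per library, red for ICI and blue for isotype. The red points lie above the blue points in 12 of the 15 genes and overlap them for mt-Nd4l, mt-Nd6 and mt-Atp8.

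Before the genes are taken in turn, 7 of them need a sequence beside them, because the count table also lists nuclear pseudogenes that are near copies. A search of the annotated transcripts (GENCODE M21, GRCm38) for pseudogenes at least 99% identical to a mitochondrial gene over at least 90% of their own length found 7, all on chromosome 1 and all annotated as unprocessed pseudogenes. Gm10925, Gm28661, Gm28437, Gm28439 and Gm10222 matched mt-Atp6, mt-Co2, mt-Co3, mt-Nd4 and mt-Nd4l without a difference over 678, 681, 783, 876 and 294 bases. Gm29216 matched mt-Co1 at 482 of 483 bases with the substitution A1066T, and Gm28438 matched mt-Nd3 at 344 of 345 bases with T3C. Positions are counted from 1 at the 5′ end of the mitochondrial gene, whose base is given first and the copy's last. The stretches around those single differences are shown, with the base that differs in capitals, since only a read that covers it can tell the members of either pair apart by sequence within the matched stretch.
mt-Co1: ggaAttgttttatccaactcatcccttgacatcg
Gm29216: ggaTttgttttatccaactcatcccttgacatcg
mt-Nd3: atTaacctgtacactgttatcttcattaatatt
Gm28438: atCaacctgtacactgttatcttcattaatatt

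The counts were split between gene and copy in very different proportions. Of the summed counts of mt-Co3 and Gm28437, 43.8% to 52.9% lay on the mitochondrial gene over the 6 libraries. The corresponding range was 56.9% to 68.7% for mt-Co2, 66.3% to 76.7% for mt-Atp6 and 74.9% to 83.9% for mt-Co1. For mt-Nd3 and mt-Nd4 the mitochondrial gene held 99.1% to 100% and 99.8% to 100%, although the copy of mt-Nd4 had no difference over its 876 bases. For mt-Nd4l it held from 0% to 36.6%. The share on mt-Atp6 was higher in every library labelled ICI (75.2% ± 1.5 against 68.7% ± 2.0, SD, n = 3 each, exact two-sided permutation p = 0.1), and the other 6 shares overlapped between the groups. No source used here gives how reads that fit several genes were assigned, so the values of these 7 genes are uncertain one by one and are also given with the copy's counts added. That sum was chosen after the data were seen. With it, 8 of the 13 protein-coding genes were again called higher, where 35.0% of all tested genes were called higher. The median log2 fold change of the 13 was 0.50, against 0.03 over all genes tested. The share of protein-coding counts with copies added was 0.834% ± 0.051 against 0.531% ± 0.036.

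**Figure D2:**
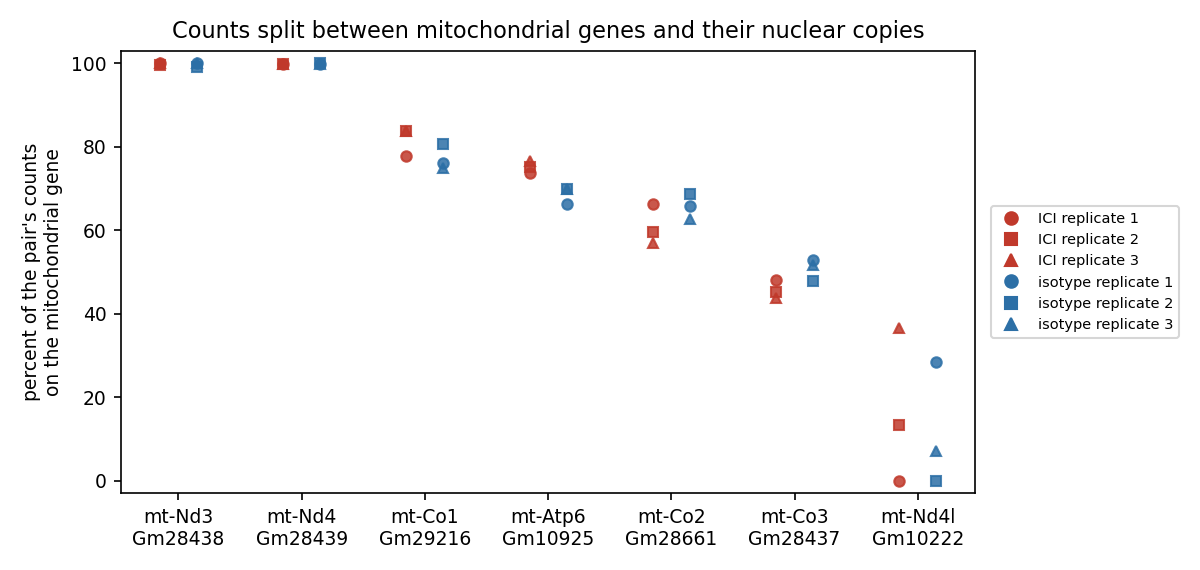
Percent of the counts of a mitochondrial gene and its near-identical nuclear copy that were listed on the mitochondrial gene, 1 point per library, red for ICI and blue for isotype. mt-Nd3 and mt-Nd4 hold nearly all counts of their pairs, mt-Co3 between 43.8% and 52.9%, and mt-Nd4l between 0% and 36.6%.

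Complex I, which takes electrons from NADH, has 7 subunits encoded in mitochondrial DNA, and 5 of them rose. Over all tested genes 35.0% were called higher. mt-Nd2 (ENSMUSG00000064345), a proton-pumping membrane subunit, was at 228, 269 and 262 CPM in libraries labelled ICI and 91.7, 82.5 and 105 CPM in isotype libraries. No ICI library reached down to the isotype libraries, and the fold was 2.36 (log2 1.24 ± 0.10, SE, edgeR adjusted p = 3.61e-06), the largest among the protein-coding genes. mt-Nd4, another pumping subunit, was at 398, 545 and 503 CPM against 196, 166 and 226 CPM, 2.14-fold higher (log2 1.10 ± 0.13, edgeR adjusted p = 6.37e-05), and adding Gm28439 left the fold at 2.14. mt-Nd2 and mt-Nd4 were also the only 2 protein-coding genes called when the edgeR test was made against a 1.5-fold change. In that test 3110 of all 14575 tested genes were called higher, and 2 of 13 was not above that share.

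mt-Nd1, which helps form the quinone site of complex I, was at 662, 836 and 841 CPM against 417, 390 and 419 CPM, 1.66-fold higher (log2 0.73 ± 0.10, edgeR adjusted p = 1.26e-04). mt-Nd3 was at 30.3, 41.2 and 36.8 CPM against 20.1, 17.9 and 21.5 CPM, 1.58-fold higher (log2 0.66 ± 0.12, edgeR adjusted p = 9.14e-04). mt-Nd5, the distal pumping subunit, was at 281, 338 and 335 CPM against 184, 178 and 205 CPM, 1.46-fold higher (log2 0.55 ± 0.09, edgeR adjusted p = 4.53e-04). In all 3 genes the groups did not overlap, and ICI replicate 1 was the lowest ICI library.

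mt-Nd6, the single protein-coding gene read from the other strand, was at 34.9, 35.1 and 32.0 CPM in libraries labelled ICI and 23.0, 17.4 and 32.9 CPM in isotype libraries. Isotype replicate 3 lay within the range of the ICI libraries, and the gene was not called (log2 0.28 ± 0.20, edgeR adjusted p = 0.246). Without isotype replicate 3 it was called higher, by 0.51 on the log2 scale (edgeR adjusted p = 0.0107). Its end overlaps mt-Nd5 by 14 bases on the opposite strand, and the libraries carry no strand, so reads from the 2 strands cannot be told apart. mt-Nd4l had 0, 46 and 106 counts against 99, 0 and 32, with 2 libraries at 0 and no agreement within a group (log2 0.36 ± 1.37, edgeR adjusted p = 0.833). With Gm10222 added it was at 16.1, 14.6 and 13.5 CPM against 11.7, 9.90 and 14.5 CPM, still overlapping (log2 0.09 ± 0.15, edgeR adjusted p = 0.613).

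Complex III passes electrons from quinol to cytochrome c and has 1 mitochondrial subunit, cytochrome b. mt-Cytb (ENSMUSG00000064370) was at 899, 913 and 936 CPM in libraries labelled ICI and 520, 491 and 539 CPM in isotype libraries. The 3 libraries of each group lay close together, and the fold was 1.54 (log2 0.62 ± 0.08, edgeR adjusted p = 7.09e-05).

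Complex IV, cytochrome c oxidase, passes the electrons to oxygen, and its 3 mitochondrial subunits form the catalytic core. mt-Co1 (ENSMUSG00000064351), which carries the oxygen-reducing site, was at 1613, 1878 and 1863 CPM against 1143, 1061 and 1090 CPM. It had the most counts of the protein-coding genes in every library and was 1.41-fold higher (log2 0.50 ± 0.09, edgeR adjusted p = 8.93e-04), or 1.33-fold with Gm29216 added (edgeR adjusted p = 0.0025). mt-Co2, which receives electrons from cytochrome c, was at 470, 444 and 427 CPM against 404, 365 and 385 CPM. mt-Co3 was at 715, 707 and 675 CPM against 669, 518 and 606 CPM. For both genes the CPM groups did not overlap, but neither was called (log2 0.02 ± 0.09 and 0.03 ± 0.11, edgeR adjusted p = 0.886 and 0.840).

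The estimate for these 2 genes depended on scaling and on the libraries used. Over all alternatives it ran from -0.04 to 0.22 for mt-Co2 and from -0.07 to 0.23 for mt-Co3, so no direction is given. On library totals alone the median over all tested genes moved from 0.03 to 0.23, and mt-Co2 was then called (log2 0.22, edgeR adjusted p = 0.0343). With the copies Gm28661 and Gm28437 added, mt-Co2 was at 708, 746 and 751 CPM against 614, 532 and 614 CPM and mt-Co3 at 1491, 1562 and 1542 CPM against 1263, 1081 and 1172 CPM. Neither sum was called (log2 0.12 ± 0.09 and 0.18 ± 0.09, edgeR adjusted p = 0.227 and 0.0991), while the copy Gm28437 on its own was called higher (log2 0.33 ± 0.08, edgeR adjusted p = 0.00537).

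ATP synthase has 2 mitochondrial subunits, which are encoded by overlapping genes on 1 shared mRNA. mt-Atp6 (ENSMUSG00000064357), part of the proton channel, was at 670, 841 and 834 CPM against 405, 414 and 499 CPM, 1.55-fold higher (log2 0.63 ± 0.11, edgeR adjusted p = 5.93e-04). With Gm10925 added the fold was 1.41 (edgeR adjusted p = 0.00178). mt-Atp8, a small subunit of the membrane sector, was at 27.0, 19.1 and 19.8 CPM against 25.6, 19.8 and 42.7 CPM, with isotype replicate 3 above all other libraries. It was not called (log2 -0.61 ± 0.30, edgeR adjusted p = 0.108) and moved to -0.29 without that library and to -0.83, called lower, without isotype replicate 2 (edgeR adjusted p = 0.0299). DESeq2 called it lower as well (log2 -0.60, DESeq2 adjusted p = 0.0231).

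The sequence of mt-Atp8 is shown because the gene overlaps its neighbour, with the 43 bases that also belong to mt-Atp6 in capitals.
mt-Atp8: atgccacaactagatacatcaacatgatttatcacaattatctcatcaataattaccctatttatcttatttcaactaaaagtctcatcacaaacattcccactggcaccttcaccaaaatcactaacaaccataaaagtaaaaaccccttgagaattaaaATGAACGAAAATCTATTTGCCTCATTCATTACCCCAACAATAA
Although the 2 genes share an mRNA, their counts per length differed. The count of mt-Atp8 per base was 13.5%, 7.59% and 7.94% of that of mt-Atp6 in libraries labelled ICI and 21.1%, 16% and 28.5% in isotype libraries. These percentages are without Gm10925 added to mt-Atp6, unlike those of the next pair. The other pair on a shared mRNA, mt-Nd4l and mt-Nd4, which overlap by 7 bases, had the same order with their copies added, at 18.8%, 12.4% and 12.4% against 27.8%, 27.7% and 29.8%. In both pairs the shorter gene had less than its neighbour per base in every library, and the ratio was lower in every library labelled ICI.

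**Figure D3:**
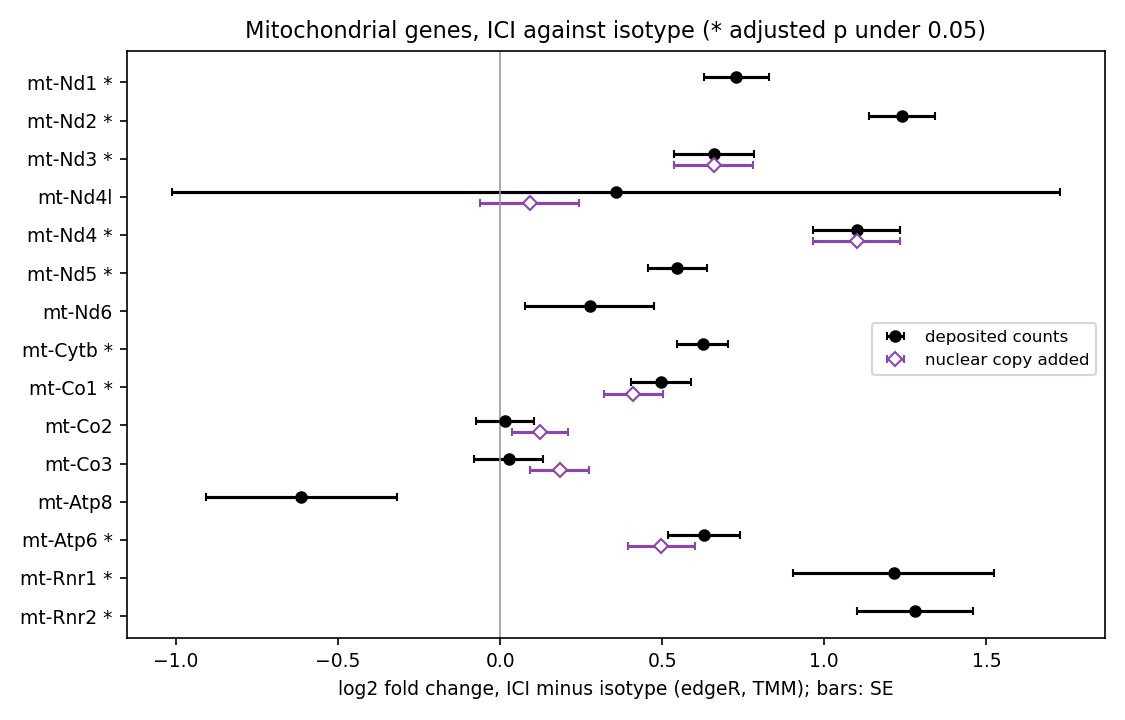
Log2 fold change of ICI minus isotype with its SE for the 15 protein-coding and rRNA genes, as black circles for the deposited counts and open diamonds with the nuclear copy added. The 8 protein-coding and 2 rRNA genes with an asterisk were called higher, with mt-Rnr2, mt-Nd2, mt-Rnr1 and mt-Nd4 above 1 on the log2 scale.

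The largest fitted fold among the genes above tRNA size was that of the large mitochondrial rRNA. mt-Rnr2 (ENSMUSG00000064339), the 16S rRNA of the mitochondrial ribosome, was at 791, 1230 and 1320 CPM in libraries labelled ICI and 444, 359 and 390 CPM in isotype libraries. Its fold was 2.43 (log2 1.28 ± 0.18, edgeR adjusted p = 3.15e-04). mt-Rnr1, the 12S rRNA of the small subunit, was at 96.3, 195 and 169 CPM against 56.1, 42.8 and 73.5 CPM, 2.32-fold higher (log2 1.21 ± 0.31, edgeR adjusted p = 0.0152). The groups did not overlap for either gene, and ICI replicate 1 was again the lowest of its group. The call of mt-Rnr1 was lost with no filter on low counts (edgeR adjusted p = 0.0565) and in the test against a 1.5-fold change (edgeR adjusted p = 0.0639).

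The rRNA share of the library was 0.127% ± 0.033 against 0.0455% ± 0.0050 (SD, n = 3 each), a ratio of 2.78 (exact two-sided permutation p = 0.1). Relative to the mitochondrial mRNAs, there were 14.7, 20.7 and 22 rRNA counts per 100 protein-coding counts in libraries labelled ICI and 12.2, 10.8 and 11.1 in isotype libraries, with no overlap. The ratio of mt-Rnr2 to mt-Rnr1 overlapped between the groups, at 6.31 to 8.21 against 5.30 to 8.38. These counts come from amplified complementary DNA and are not a measure of the rRNA content of the cells.

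In libraries primed at poly(A) tails, counts of the short tRNA genes do not measure the tRNA content of the cells. The tRNA genes were near the detection limit. Of 22, 4 passed the filter on low counts and 1 of these was called higher, where 35.0% of all tested genes were called higher. Another 15 had at most 45 counts over all 6 libraries, mt-Te with the most, and mt-Tr, mt-Th and mt-Tl2 had 0 counts in every library, which allows up to 3 counts over the 6 libraries, or 0.0196 CPM. The 4 that passed, mt-Tq, mt-Ts1, mt-Tc and mt-Tp, all lie on the strand opposite to most genes. The 8 tRNA genes of that strand held 901 counts in all and the 14 of the other strand 63. Without strand in the libraries, reads of these tRNAs cannot be told apart from reads of the opposite precursor. The genes for glutamine, serine and cysteine tRNA are shown because they had the most counts of the tRNA genes, with the anticodon in capitals as found from a loop of 7 bases closed by at least 4 of 5 stem pairs.
mt-Tq: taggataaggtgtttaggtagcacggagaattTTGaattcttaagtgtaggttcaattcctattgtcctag
mt-Ts1: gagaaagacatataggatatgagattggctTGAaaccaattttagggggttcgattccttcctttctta
mt-Tc: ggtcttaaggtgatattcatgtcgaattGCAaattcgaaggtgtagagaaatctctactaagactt
All sequences are from GENCODE M21 transcripts on the strand of the gene.

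mt-Tq had 40, 24 and 33 counts in libraries labelled ICI and 68, 26 and 159 in isotype libraries. mt-Ts1 had 44, 26 and 30 against 60, 29 and 159. Isotype replicate 3 was far above the rest in both genes, and the ratio of mt-Tq to mt-Ts1 was 0.897 to 1.13 in all 6 libraries. Neither was called (log2 -1.22 ± 0.56 and -1.15 ± 0.55, edgeR adjusted p = 0.0876 and 0.0995), and without isotype replicate 3 the estimates were -0.50 and -0.38. DESeq2 called both lower. mt-Tc had 33, 14 and 20 counts against 2, 0 and 13, with no overlap in CPM, and was 4.79-fold higher (log2 2.26 ± 0.71, edgeR adjusted p = 0.0176). That call was lost without ICI replicate 1 (edgeR adjusted p = 0.0685) or isotype replicate 1 (edgeR adjusted p = 0.0734), and the fold was 20.2 without isotype replicate 3. mt-Tp, at 9, 5 and 11 counts against 13, 0 and 19, was not called. The tRNA share overlapped between the groups, at 0.000380% to 0.000632% against 0.000247% to 0.00130%, with isotype replicate 3 the highest.

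The order of levels among the genes was compared per kilobase of gene, as mean CPM per kb. In libraries labelled ICI mt-Co1 was highest at 1155 ± 96, followed by mt-Atp6 at 1148 ± 142, and these 2 neighbours did not differ beyond their spread. mt-Co3 at 892 ± 27 lay below both, and mt-Nd1 at 815 ± 107, mt-Cytb at 801 ± 16, mt-Rnr2 at 704 ± 179 and mt-Co2 at 654 ± 32 followed, each within the spread of its neighbour. mt-Nd4 at 350 ± 55, mt-Nd2 at 243 ± 21 and mt-Nd5 at 174 ± 18 came next, each below the one before by more than their SD, with mt-Rnr1 at 161 ± 53 within the spread of mt-Nd5. The least abundant protein-coding genes were mt-Atp8 at 108 ± 21, mt-Nd3 at 104 ± 16, mt-Nd6 at 65.5 ± 3.4 and mt-Nd4l at 7.70 ± 8.35. In libraries labelled isotype mt-Co3 at 762 ± 97, mt-Co1 at 711 ± 27 and mt-Atp6 at 645 ± 76 led, each within the spread of its neighbour, followed by mt-Co2 at 563 ± 28, while mt-Nd2 was at 89.6 ± 10.8. With the copies added mt-Co3 led in both groups, at 1954 ± 47 against 1495 ± 116 CPM per kb, and mt-Nd4l was at 49.7 ± 4.5 and 40.6 ± 7.8, so the order of the cytochrome oxidase genes rests on how copies are counted.

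The make-up of the mitochondrial mRNA pool, each gene as a percent of the counts of the 13, does not depend on scaling between libraries. mt-Nd4 made up 6.61%, 7.94% and 7.43% in libraries labelled ICI and 4.77%, 4.45% and 5.41% in isotype libraries. mt-Nd2 made up 3.85% ± 0.07 against 2.32% ± 0.17, mt-Nd1 11.9% ± 0.8 against 10.2% ± 0.2 and mt-Cytb 14.0% ± 0.8 against 12.9% ± 0.3. These 4 genes took a larger share in every library labelled ICI. mt-Co3 made up 11.9%, 10.3% and 9.97% against 16.3%, 13.9% and 14.5%, mt-Co2 6.86% ± 0.82 against 9.64% ± 0.35 and mt-Atp8 0.340% ± 0.094 against 0.727% ± 0.260, and these 3 took a smaller share in every library labelled ICI. mt-Co1, the largest part, overlapped at 27.2% ± 0.4 against 27.5% ± 1.2. Each of the 7 differences had an exact two-sided permutation p = 0.1 and a Benjamini-Hochberg value of 0.186 over the 13 genes, so none passed 0.05 in this design. With copies added the same 4 genes and mt-Nd3 were higher and the same 3 lower, with no overlap.

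**Figure D4:**
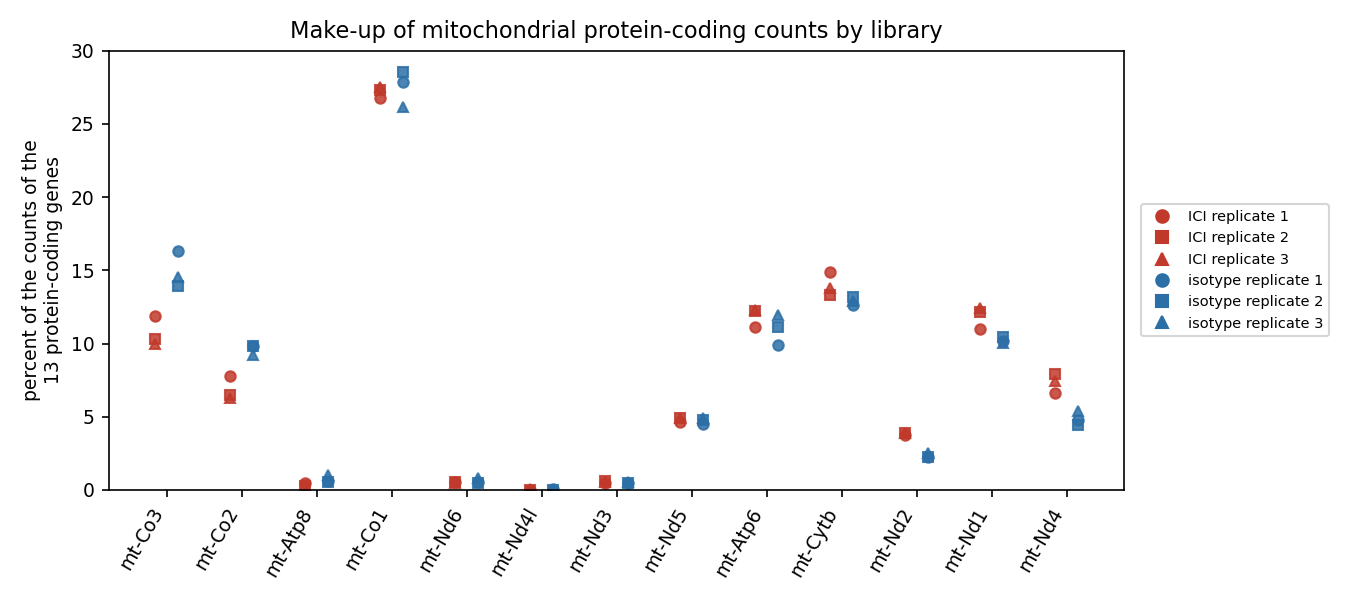
Percent of the counts of the 13 protein-coding genes that each gene held, 1 point per library, red for ICI and blue for isotype, ordered by the difference of the group means. mt-Co3 and mt-Co2 at the left are lower in all ICI libraries, and mt-Nd2, mt-Nd1 and mt-Nd4 at the right are higher.

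Gene length went along with these differences. Over the 15 protein-coding and rRNA genes the Spearman correlation of length with log2 fold change was 0.51, and 0.61 with copies added. Over the tested genes with a known length, 97.6% of all, it was 0.21. These are descriptions across genes that share libraries and precursor RNAs, and the part of length in the results was not tested.

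The listed nuclear genes for the partner subunits moved the other way. Of the nuclear subunits in the lists, all 37 of complex I, 9 of complex III, 11 of complex IV and 17 of ATP synthase fell, with median log2 fold changes of -1.31, -1.38, -1.77 and -1.50, where 33.9% of all tested genes were called lower. The 4 subunits of complex II, which has no mitochondrial gene, fell as well (median -1.23). Isoforms of complex IV subunits that were placed in the cardiomyocyte marker list are not counted here. In that marker list 17 of 18 tested genes were called higher, against 35.0% of all tested genes. Among the nuclear subunits that fell were Cox5a of complex IV and Cyc1, cytochrome c1 of complex III. Cox5a was at 53, 55.2 and 49.7 CPM against 204, 168 and 179 CPM. Cyc1 was at 73.5, 79.1 and 74.0 CPM against 218, 207 and 179 CPM. Ndufc1 of complex I and Atp5mc3 of ATP synthase fell by 1.96 and 1.80 on the log2 scale.

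Within each library, the summed counts of the mitochondrial subunits were set against those of the nuclear subunits of the same complex. For complex I the mitochondrial sum was 1905 ± 236 CPM against 932 ± 79 CPM and the nuclear sum 1377 ± 49 CPM against 2897 ± 245 CPM. The log2 ratio was 0.19, 0.61 and 0.58 in libraries labelled ICI and -1.75, -1.64 and -1.51 in isotype libraries, 4.28-fold higher, so that the mitochondrial sum exceeded the nuclear sum in every library labelled ICI and in no library labelled isotype. For complex III the log2 ratio was 0.72 ± 0.10 against -1.28 ± 0.11 (3.99-fold) and changed sign between the groups in the same way. For complex IV it was 2.02 ± 0.12 against 0.14 ± 0.06 (3.68-fold) and for ATP synthase -1.37 ± 0.17 against -3.25 ± 0.23 (3.68-fold, or 3.40-fold with copies added). Each of the 4 had an exact two-sided permutation p = 0.1, with a Benjamini-Hochberg value of 0.1, the smallest the design allows.

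**Figure D5:**
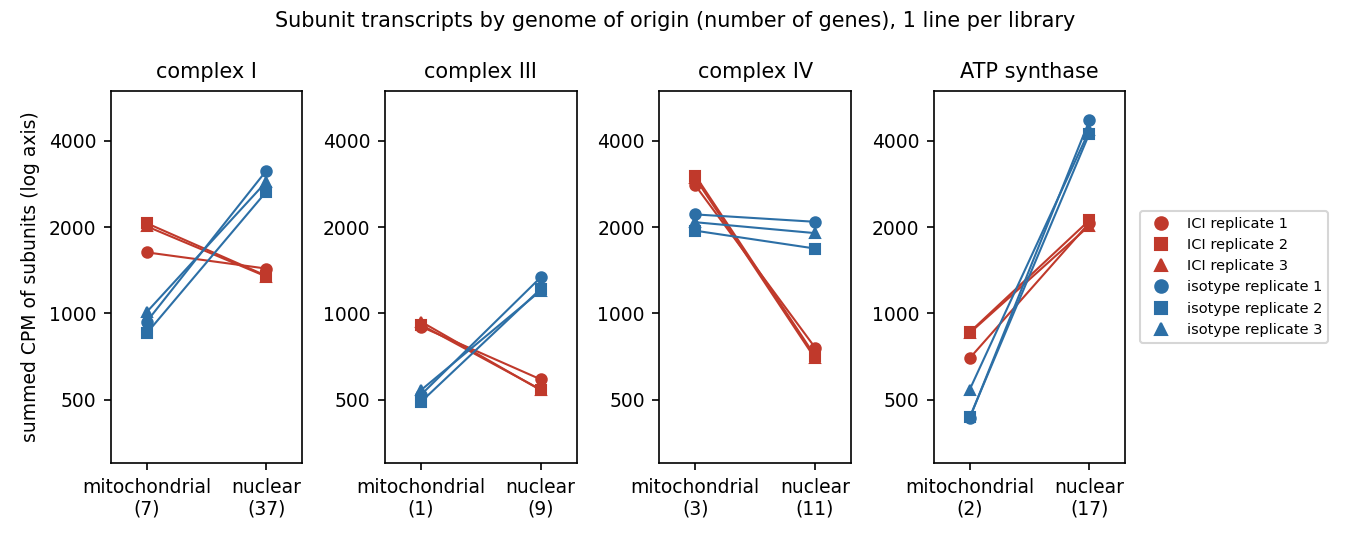
Summed CPM (log axis) of the mitochondrial and the nuclear subunits of each complex, with the number of genes in parentheses, 1 line per library, red for ICI and blue for isotype. The red lines lie above the blue on the mitochondrial side and below them on the nuclear side in all 4 complexes.

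The 78 nuclear subunit genes had a median transcript length of 1093.5 bases, with a range of 419 to 6310, and 49 had at most 1500 bases. The 2131 tested genes of at most 1500 bases had a median log2 fold change of -0.45, against 0.03 over all genes tested. For the nuclear subunits of any length it was -1.39, and the part of length in these differences was not tested. Other nuclear genes for mitochondrial proteins fell too: all 19 of the membrane, import and matrix markers were called lower (median -0.88). Over all tested genes 33.9% were called lower. Among the 19 were the import pore gene Tomm40 (log2 -1.72) and the outer membrane channel gene Vdac1 (log2 -1.40).

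Of 9 tested genes that transcribe mitochondrial DNA 3 fell and 6 were not called (median log2 fold change -0.30), a share of lower calls near the 33.9% over all tested genes. Polrmt, the RNA polymerase, was at 22.3, 17 and 22.1 CPM against 22.3, 24.4 and 21.6 CPM, with ICI replicate 2 alone below the rest, and its call as lower (log2 -0.36 ± 0.13, edgeR adjusted p = 0.0285) was lost on library totals alone (edgeR adjusted p = 0.304) and without ICI replicate 2, isotype replicate 1 or isotype replicate 2. Tfam, which packs mitochondrial DNA and starts transcription, was at 15.9, 19.0 and 20.5 CPM against 12.9, 10.8 and 15.4 CPM with no overlap, but was not called (log2 0.30 ± 0.14, edgeR adjusted p = 0.0834; 0.0146 on library totals alone, and 0.0362 without isotype replicate 3). Tfb2m, the initiation factor, was not called (log2 -0.30, edgeR adjusted p = 0.0539), but was called lower with limma-voom (adjusted p = 0.0477), with the replicate block (edgeR adjusted p = 0.0455) and without ICI replicate 3 (edgeR adjusted p = 0.0302). Tefm, the elongation factor, fell (log2 -0.67 ± 0.15, edgeR adjusted p = 0.00293), as did Mrpl12, a ribosomal protein that also binds the polymerase (log2 -1.57 ± 0.10, edgeR adjusted p = 1.02e-06).

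Of 20 genes of mitochondrial DNA replication and upkeep 9 were higher, 9 lower and 2 not called, where 35.0% of all tested genes were called higher and 33.9% lower. Polg, the DNA polymerase, was at 86.2, 72.4 and 85.7 CPM against 73.7, 72.8 and 71.3 CPM and was not called (log2 -0.04, edgeR adjusted p = 0.729). Twnk, the helicase, was at 11.3, 10.5 and 11.2 CPM against 6.80, 7.62 and 6.54 CPM and rose (log2 0.45 ± 0.13, edgeR adjusted p = 0.0122), a call that was lost without isotype replicate 1 or isotype replicate 3. The flap nuclease gene Fen1, which also serves nuclear DNA, fell (log2 -1.58). DNA copy number was not measured here.

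The genes that mature and stabilise mitochondrial RNA are read here against 33.9% of all tested genes called lower and 35.0% called higher. Of 26 genes of RNA processing and modification 12 fell, 13 were not called and 1 rose, the poly(A) polymerase gene Mtpap, at 34.5, 41.1 and 40.1 CPM against 26.1, 26.1 and 25.1 CPM (log2 0.38 ± 0.10, edgeR adjusted p = 0.0053). Of 16 genes of RNA stability and decay 14 fell and 2 were not called (median -0.53). Lrpprc, whose product binds and protects mitochondrial mRNAs, was at 38.6, 43.8 and 43.6 CPM against 55.1, 54.3 and 48.6 CPM (log2 -0.53 ± 0.09, edgeR adjusted p = 6.53e-04). Its partner Slirp was at 16.1, 18.5 and 16.3 CPM against 45.7, 38.2 and 38.7 CPM (log2 -1.47 ± 0.11, edgeR adjusted p = 2.76e-06). Rexo2, which degrades short RNA, fell by 1.39 on the log2 scale. Of 19 aminoacyl-tRNA synthetase genes, which charge the tRNAs, 11 fell and 8 were not called, Gars1 among the former (log2 -1.29).

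Of 13 tested nuclear regulators of mitochondrial content 7 were higher, 2 lower and 4 not called, against 35.0% of all tested genes called higher and 33.9% lower. Ppargc1a, a coactivator known for driving mitochondrial biogenesis, did not pass the filter, at 0.132, 0.717 and 0.232 CPM against 0, 0.0406 and 0.0325 CPM. Its relative Ppargc1b fell (9.52, 10.4 and 10.4 CPM against 26.8, 30.8 and 27.4 CPM, log2 -1.69), as did Esrra, the nuclear receptor with which these coactivators act (log2 -1.13). Nrf1 was not called (log2 0.02, edgeR adjusted p = 0.846), and was called higher on library totals and with upper-quartile factors. Sirt1, a deacetylase, rose (44.8, 51.6 and 61.7 CPM against 16.7, 17.5 and 18.4 CPM, log2 1.38), and Gabpa, a factor for respiratory genes, rose less (log2 0.48). A further list held 12 genes tied to sensing of mitochondrial DNA or RNA in the cytosol or endosome, not all of them sensors. Of these 12 genes 3 rose, 5 fell and 4 were not called, near those same background shares. Among them Tlr7, a receptor for single-stranded RNA, rose (log2 1.45), Mavs, the adaptor on the mitochondrial membrane, rose by 0.37, and Sting1, the adaptor of DNA sensing, fell by 1.53 on the log2 scale.

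Markers of cell types outside the gate also differed between the groups, where 35.0% of all tested genes were called higher and 33.9% lower. Of 18 tested cardiomyocyte markers 17 were higher and 1 was not called, and the list summed to 69.1 to 89.6 CPM in libraries labelled ICI and 10.1 to 20.8 CPM in isotype libraries, with no member at 0 in all libraries. Endothelial markers were higher in 5 of 7 cases, with sums of 35.3 to 55.9 CPM against 19.5 to 26.8 CPM. Erythroid markers were higher in 4 of 4 cases, at 19.3 to 38.8 CPM against 0.325 to 2.56 CPM. Of 4 tested T cell markers 2 were higher, 1 lower and 1 not called, with sums of 11.3 to 21.9 CPM against 1.58 to 3.81 CPM. Fibroblast markers rose in 7 of 9 cases and fell in 1, while their sums overlapped at 518 to 956 CPM against 726 to 1053 CPM. The part of these cells in the mitochondrial result was not tested.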

How the data were processed

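RNA of sorted heart cells was made into non-directional SMART-seq V4 libraries and sequenced as read pairs, per the labels' protocols. The authors deposited raw counts per Ensembl gene for 57010 genes and 6 libraries; STAR 2.7.10a, Salmon 1.10.1 and GRCm39 are named in the submitters' processing notes without their roles. No source used here gives how multiply mapped reads were counted or whether the whole numbers were rounded. Symbols were matched for 52029 identifiers (91.3%). The annotation used for lengths, overlaps, copies and sequences is of an older build, so no coordinates are given.

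All 6 libraries entered 1 fit with edgeR 4.0.16 (quasi-likelihood F test, TMM factors, robust dispersions, filterByExpr with a minimum count of 10) in R 4.3.3, with Benjamini-Hochberg adjustment over 14575 genes. Shares, make-up and ratios, 1 value per library, were compared by exact two-sided permutation tests. Replicates are labelled as biological, and where they do not stem from separate animals p-values measure only the spread between libraries. Counting limits cover counting error only, since amplified reads without molecular identifiers do not stand for separate molecules. All 37 genes are accounted for; named were all protein-coding and rRNA genes, tRNA genes that passed the filter and the highest other one (the 3 at 0 counts are named outside this rule), up to 4 genes of each nuclear list by smallest p, and 11 fixed regulators. The members and the 19 lists (280 genes, 279 found) were chosen with earlier results of these data known. Alternatives were DESeq2 1.42.0, voom in limma 3.58.1, RLE and upper-quartile factors, library totals with and without mitochondrial genes, no filter on low counts, a stricter filter (at least 50 counts in 3 libraries), a test against a 1.5-fold change, a replicate block and each replicate left out. The legacy fit and the sum with nuclear copies were added after the data were seen.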

Additional observations from a re-analysis of the deposited data

How the results depend on the processing

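The 8 protein-coding genes called higher became 9 without isotype replicate 3, without replicate 3 of both groups and on library totals alone. Against a 1.5-fold change 2 were called higher, where 3110 of all 14575 tested genes were called higher and 2410 lower. In that test 1 of the 2 rRNA genes was called, as with no filter. The edgeR test called 0 protein-coding genes lower, also at an unadjusted p under 0.05, as did voom, whereas DESeq2 called 1, mt-Atp8. Leaving out 1 replicate gave 8 to 9 called higher and 0 to 1 called lower (mt-Atp8, without isotype replicate 2). Of the tRNA genes DESeq2 called 2 lower, and leaving out 1 replicate gave 0 to 1 called higher and 0 to 2 lower; with the strict filter none was tested, so 0 were called. The difference in tRNA share, ICI minus isotype, was -0.000180% and turned to 0.000126% without isotype replicate 3 and 0.000120% without replicate 3 of both groups (range -0.000403% to 0.000126% with 1 replicate left out). Genes with a larger share of the mRNA pool in every library labelled ICI numbered 4 to 7 with 1 replicate left out, 7 of them without ICI replicate 1. Of the 212 tested nuclear list genes outside the cell type marker lists, 20 were called higher and 153 lower, against 35.0% and 33.9% of all tested genes. The 19 membrane, import and matrix markers are among the 212. Against a 1.5-fold change 6 were called higher and 110 lower, where 3110 and 2410 of all 14575 tested genes were called. Of 355 fold changes of tested mitochondrial genes under an alternative, 335 kept their side of the threshold.

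Scaling moved the split of calls over all genes from 5102 higher and 4938 lower to 6155 and 3849 with upper-quartile factors and 6255 and 3724 on library totals. Same-numbered libraries of the groups had correlations of 0.034, 0.062 and 0.13 of their deviations, against -0.136 to 0.090 between different numbers. The highest, 0.13, was that of replicate 3 of each group, the libraries with Xist counts. All were small, and the numbers were not taken to pair the libraries. With the replicate block 8 protein-coding and 2 rRNA genes were called higher and 1 tRNA gene lower (mt-Tq, edgeR adjusted p = 0.0269). Low counts limit the tRNA genes and mt-Nd4l, and shared sequence limits the 7 genes with nuclear copies.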
